A study of Rattus norvegicus with 9 samples.

Results

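Nuclear genes for the subunits of complex II, complex III, complex IV and complex V of the mitochondrial respiratory chain were followed in kidney tissue. The set holds 37 genes, found by their identifiers among 17862 features: 4 of complex II, 9 of complex III, 10 of complex IV and 14 of complex V. The identifiers and their gene names come from a list given with the series, which names the ATP synthase genes in their older style (Atp5a1, Atp5b and so on). Membership was set by function and not by measured values, though the members were chosen with earlier results of these data known. All 37 were present in every library and all passed the filter on low values, an average of 1 FPKM or more over the 9 libraries, which left 12187 features to test. FPKM is the number of reads or fragments per kilobase of feature, scaled to the library total.

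The study sequenced ribosomal RNA-depleted total RNA from renal tissue in 3 groups of 3 libraries, all at 6 weeks of age. WT is the normal group, Model the group with hypertension, and QDG the group with hypertension that was treated with Qingda granule (QDG), a Chinese herbal preparation. All groups are labelled as brown rat, while the identifiers in the files are those of mouse genes (ENSMUSG), and no strain, sex, cause of the hypertension or dose of the granule is given there or in the labels. Nothing in them states that the libraries of a group came from separate animals, so the p-values measure only the spread between these libraries, which may be technical. The files pair no identifiers with symbols, so markers of kidney cell types, the mitochondrially encoded subunits and the assembly factors could not be looked up by name, and the labelled tissue was not checked against its markers.

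These complexes sit in the inner mitochondrial membrane. Complex II oxidises succinate, complex III passes electrons from ubiquinol to cytochrome c, complex IV passes them from cytochrome c to oxygen, and complex V, the ATP synthase, uses the resulting proton gradient to make ATP. Tubule cells of the kidney, the proximal tubule above all, hold many mitochondria and use this ATP to drive reabsorption. All subunits of complex II are nuclear-encoded, whereas the other complexes also need subunits made from mitochondrial DNA.

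Library totals recovered from the values ran from 26.2 M to 31.4 M, and each of the 37 genes was covered by 336 to 103621 reads or fragments in a library. The subunit genes were among the most abundant features. Their means over the 9 libraries ran from 3.94 to 1175 FPKM with a median of 235 FPKM, and 31 of 37 stood at 100 FPKM or more. Together they made up 2.22% ± 0.25 (SD, n = 3) of all FPKM for WT, 3.1% ± 0.174 for Model and 2.59% ± 0.319 for QDG.

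Within a complex, the levels per length were uneven. In complex II, Sdhd was the most and Sdhc the least abundant, at means of 257 and 111 FPKM over the 9 libraries. Complex III ran from Uqcr10 at 659 FPKM down to Uqcrc1 at 3.94 FPKM. Complex IV ran from Cox6a1 at 1175 FPKM to Cox5a at 83.3 FPKM, and complex V from Atp5b at 736 FPKM to Atp5a1 at 18.4 FPKM. Subunits that sit together in equal number in the assembled complex were not listed at equal levels. Uqcrc2, which pairs with Uqcrc1 in the core of complex III, was listed at 21.2 to 48.3 times the level of Uqcrc1, depending on the library. Atp5b, the catalytic beta subunit, was listed at 29.8 to 48.3 times the level of its partner Atp5a1, the alpha subunit. Many respiratory chain genes have near-identical processed copies elsewhere in the genome, and the sources used here do not say how reads shared with such copies were counted, so levels set between these genes are uncertain.

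Model was compared with WT to ask which genes differ in the hypertensive kidney. All 37 subunit genes had a higher fitted mean in Model (53.0% of all features did), with a median log2 difference of 0.54, against 0.02 over all features tested. Under quantile normalization 34 did, with a median of 0.31, and with the trend of values with feature length removed 36 did. Without these changes the median over features at 100 FPKM or more was 0.27. It was 0.21 for features under 1000 bases, 0.14 for those of 1000 to 3000 bases and −0.04 for those over 3000 bases. Log2 differences are on the log2(FPKM + 1) scale, and a gene is called where the adjusted p from the limma fit was under 0.05. Higher in Model were 16 of 37 genes (43.2%) and lower were 0, while 6.01% of all features tested were called higher and 7.90% in either direction. The 3 Model values lay above the 3 WT values for 30 of 37 genes, against 17.3% of all features. Bulk tissue cannot tell more cells rich in these transcripts from more of the RNA per cell, nor can hypertension be told apart from other differences between the groups that the labels do not give.

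The called genes lay in all 4 complexes: 1 of 4 in complex II, 4 of 9 in complex III, 3 of 10 in complex IV and 8 of 14 in complex V. The median log2 difference was 0.40, 0.60, 0.54 and 0.72 in that order. For comparison, 80 of 536 features at 100 FPKM or more were called higher, as were 138 of 1187 features under 1000 bases, 338 of 3377 of 1000 to 3000 bases and 256 of 7623 longer ones. The number of calls depended on single libraries, Model 3 above all. Without Model 3, 0 of 37 genes passed in the limma fit, although the median difference was 0.47, 36 genes stayed above 0 and 23 genes (62.2%) had an unadjusted p under 0.05. In that fit 195 of 12187 features were called (1.18% higher, 1.60% in either direction) and 21.0% had such a p. With all libraries 29 genes did, against 28.0% of all features tested. Other libraries were left out in turn, and the share of all features called higher in each fit stands in brackets. There were 6 calls for WT 1 (2.66%), 2 for WT 2 (1.49%) and 16 for WT 3 (8.31%). Model 1 gave 7 (1.92%) and Model 2 gave 14 (6.38%). QDG 1 gave 12 (4.06%), QDG 2 gave 5 (2.58%) and QDG 3 gave 7 (3.52%), where QDG libraries enter through the shared estimate of the spread. With no QDG library in the fit 1 gene passed (0.837%). With reads recovered from the values and limma's voom, 18 genes passed with all libraries (5.52% of all features were called higher in that fit). Without Model 3, voom called 2, Atp5a1 and Atp5e (1.32%).

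Complex II showed the smallest median difference. Sdha (ENSMUSG00000021577), the flavoprotein that oxidises succinate, stood at 137, 188 and 165 FPKM in the WT libraries, at 220.3, 188 and 218 in Model and at 224, 211 and 189.8 in QDG. Its log2 difference of 0.36 (SE 0.15) did not pass (limma adjusted p = 0.138), although the lowest Model value lay just above the highest WT value. Sdhb, the iron-sulfur subunit, stood at 206, 178 and 167 FPKM in WT, at 238, 223 and 282 in Model and at 219, 186 and 188 in QDG, a log2 difference of 0.43 (SE 0.14) between Model and WT that did not pass (limma adjusted p = 0.0846). Sdhc and Sdhd anchor these subunits in the membrane. Sdhc was at 108, 105 and 91.1 FPKM in WT, at 121, 110.3 and 139 in Model and at 116, 106 and 101.2 in QDG, a difference of 0.28 (SE 0.13; limma adjusted p = 0.182). Sdhd (ENSMUSG00000000171) was the member called, with 181, 212 and 222 FPKM in WT against 300.5, 266 and 329 in Model and 296, 266 and 242 in the granule group. It rose by 0.54 on the log2 scale (SE 0.14; limma adjusted p = 0.0459), and neither the Model nor the QDG values overlapped those of WT.

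In complex III, 8 of 9 genes did not overlap between Model and WT, and 4 were called, against 17.3% and 6.01% of all features in that direction. Uqcrfs1 (ENSMUSG00000038462), the Rieske iron-sulfur protein that takes electrons from ubiquinol, was at 309.5, 277 and 287 FPKM in WT, at 440.4, 434 and 543 in Model and at 428, 379 and 356 in QDG. It rose in Model by 0.69 on the log2 scale (SE 0.14; limma adjusted p = 0.0231), and its QDG values fell in the gap between the other groups. Cyc1 (ENSMUSG00000022551), the cytochrome c1 heme protein that hands electrons to cytochrome c, was at 182, 166 and 188 FPKM in WT, at 248, 257 and 264 in Model and at 241, 215 and 205 in QDG. Its groups were tight and did not overlap, and it rose in Model by 0.52 (SE 0.12; limma adjusted p = 0.0296). Uqcrq (ENSMUSG00000044894), a small accessory subunit, was at 179.7, 121 and 168 FPKM in WT, at 249.2, 261 and 318 in Model and at 224, 167 and 162 in QDG. It rose in Model by 0.83 (SE 0.19; limma adjusted p = 0.0306), and WT 2 was the lowest of its 9 values. Uqcrh, the acidic hinge subunit, was called with a log2 difference of 0.60 (SE 0.16; limma adjusted p = 0.0475).

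The other 5 genes of complex III did not pass. Uqcr10, a small accessory subunit and the most abundant gene of the complex, was at 672, 518 and 499 FPKM in WT, at 735, 745 and 908 in Model and at 722, 553 and 582 in QDG, a log2 difference of 0.50 (SE 0.17; limma adjusted p = 0.0951). Uqcrc1, a core subunit, was at 3.10, 3.199 and 2.74 FPKM in WT, at 3.53, 5.56 and 6.99 in Model and at 3.78, 3.503 and 3.06 in QDG. Its Model libraries were uneven, with Model 1 close to the WT and QDG values, and the log2 difference of 0.63 missed the threshold (SE 0.18; limma adjusted p = 0.0566). Uqcrc2, the other core subunit, was at 127, 138 and 115 FPKM in WT, at 161, 149 and 149 in Model and at 163, 147 and 148 in QDG, a difference of 0.27 (SE 0.12; limma adjusted p = 0.158). The log2 difference was 0.22 for Uqcrb and 0.93 for Uqcr11, both small accessory subunits, and Uqcr11 had the larger SE of the pair, 0.26, with a limma adjusted p of 0.0542.

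In complex IV, Cox5a, Cox6b1 and Cox8a were called. Cox5a (ENSMUSG00000000088), a subunit on the matrix side, was the least abundant of the complex at 61.4, 53.4 and 67.0 FPKM in WT, at 92.6, 95.7 and 118 in Model and at 97.8, 81.0 and 82.7 in QDG. Its WT values lay below all 6 others, and it rose in Model by 0.74 on the log2 scale (SE 0.14; limma adjusted p = 0.019). Cox6b1, which faces the intermembrane space, and Cox8a, a membrane-spanning subunit, rose by 0.68 (SE 0.17; limma adjusted p = 0.0431) and 0.80 (SE 0.20; limma adjusted p = 0.0408). Cox6a1 (ENSMUSG00000041697), the most abundant of the 37 genes, was at 1046, 787 and 1021 FPKM in WT, at 1279, 1411 and 1810 in Model and at 1160, 1034 and 1025 in QDG. Model 3 stood well above the other Model libraries for this gene, and its difference of 0.65 just missed the threshold (SE 0.18; limma adjusted p = 0.0532). The other 6 genes of the complex (Cox4i1, Cox5b, Cox6c, Cox7a2, Cox7b and Cox7c) had log2 differences between 0.26 and 0.60 and did not pass. Cox4i1, which carries a site for allosteric control by ATP, and Cox6c overlapped between Model and WT.

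The ATP synthase had the most called genes, 8 of 14. They lay in its catalytic head, rotor, membrane ring, peripheral stalk and small membrane subunits, though not all genes of these parts were called. Atp5a1 (ENSMUSG00000025428), the alpha subunit of the head, had the smallest p of the 37 genes. It was at 12.3, 14.4 and 13.3 FPKM in WT, at 18.8, 26.3 and 24.1 in Model and at 18.8, 19.4 and 17.8 in QDG, so that WT lay below all other libraries, and it rose in Model by 0.74 on the log2 scale (SE 0.13; limma adjusted p = 0.0145). Atp5b (ENSMUSG00000025393), the catalytic beta subunit, was at 596, 674 and 526 FPKM in WT, at 850.1, 783 and 885 in Model and at 846, 744 and 722 in QDG. Its difference of 0.49 did not pass (SE 0.15; limma adjusted p = 0.0635), although no Model or QDG value reached down to the WT values.

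Of the rotor genes, Atp5e and Atp5d were called and Atp5c1, the gamma subunit that turns inside the head, was not. Atp5e (ENSMUSG00000016252), the epsilon subunit, was at 102, 68.4 and 125 FPKM in WT, at 211, 213 and 282 in Model and at 184, 138 and 129 in QDG. The 3 groups did not overlap, with QDG between the others, and Atp5e rose in Model by 1.28 (SE 0.23; limma adjusted p = 0.0162), a ratio of group means of 2.39. Atp5d (ENSMUSG00000003072), the delta subunit, was at 238, 174 and 232 FPKM in WT, at 318, 321 and 431 in Model and at 314, 267 and 269 in QDG, and rose in Model by 0.73 (SE 0.17; limma adjusted p = 0.0343). Atp5c1 had a log2 difference of 0.17 and overlapped between the groups.

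Atp5g1 and Atp5g3 encode the same mature c subunit of the membrane ring, and both were called. Atp5g1 (ENSMUSG00000006057) was at 47.0, 36.0 and 48.4 FPKM in WT, at 63.3, 72.5 and 88.6 in Model and at 64.6, 52.2 and 50.2 in QDG, a rise in Model of 0.76 (SE 0.17; limma adjusted p = 0.0279). Atp5g3 (ENSMUSG00000018770) was at 260.1, 201 and 302 FPKM in WT, at 386, 391 and 511 in Model and at 379, 306 and 292 in QDG, a rise of 0.76 (SE 0.19; limma adjusted p = 0.0387). For both genes WT 2 was the lowest and Model 3 the highest of the 9 libraries. In the peripheral stalk, Atp5o (ENSMUSG00000022956), the oligomycin sensitivity-conferring protein, was at 65.6, 51.4 and 77.7 FPKM in WT, at 92.5, 106 and 143 in Model and at 88.3, 86.7 and 77.7 in QDG. It rose in Model by 0.80 (SE 0.19; limma adjusted p = 0.0333), and the lowest QDG value (77.67 FPKM) met the highest WT value (77.74 FPKM). The other stalk genes did not pass: the log2 difference was 0.46 for Atp5f1, 0.28 for Atp5j and 0.10 for Atp5h, the smallest of the 37. Atp5h was at 313, 244 and 186 FPKM in WT, at 233, 238 and 316 in Model and at 218, 179.6 and 191 in QDG, so that WT 1 exceeded the Model libraries except Model 3.

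Atp5k, Atp5l and Atp5j2 encode the small membrane subunits e, g and f, of which e and g help to hold ATP synthase dimers together. Atp5k (ENSMUSG00000050856) was at 43.4, 28.0 and 146 FPKM in WT, at 215, 209 and 267 in Model and at 226, 150.1 and 123 in QDG. It had the largest difference of the 37 genes, a rise in Model of 2.0 with the largest SE, 0.48 (limma adjusted p = 0.0368). WT 3 stood at 4.09 times the mean of the other 2 WT libraries for Atp5k, whereas for the other 36 genes this ratio ran from 0.616 to 1.63. QDG 1 lay within the Model range and QDG 3 under WT 3. Atp5l (ENSMUSG00000038717) was at 25.98, 19.9 and 22.1 FPKM in WT, at 34.3, 33.5 and 45.3 in Model and at 29.9, 28.1 and 26.8 in QDG, and rose in Model by 0.71 (SE 0.14; limma adjusted p = 0.0225). Atp5j2 had a difference of 0.35 and its groups overlapped.

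**Figure D1:**
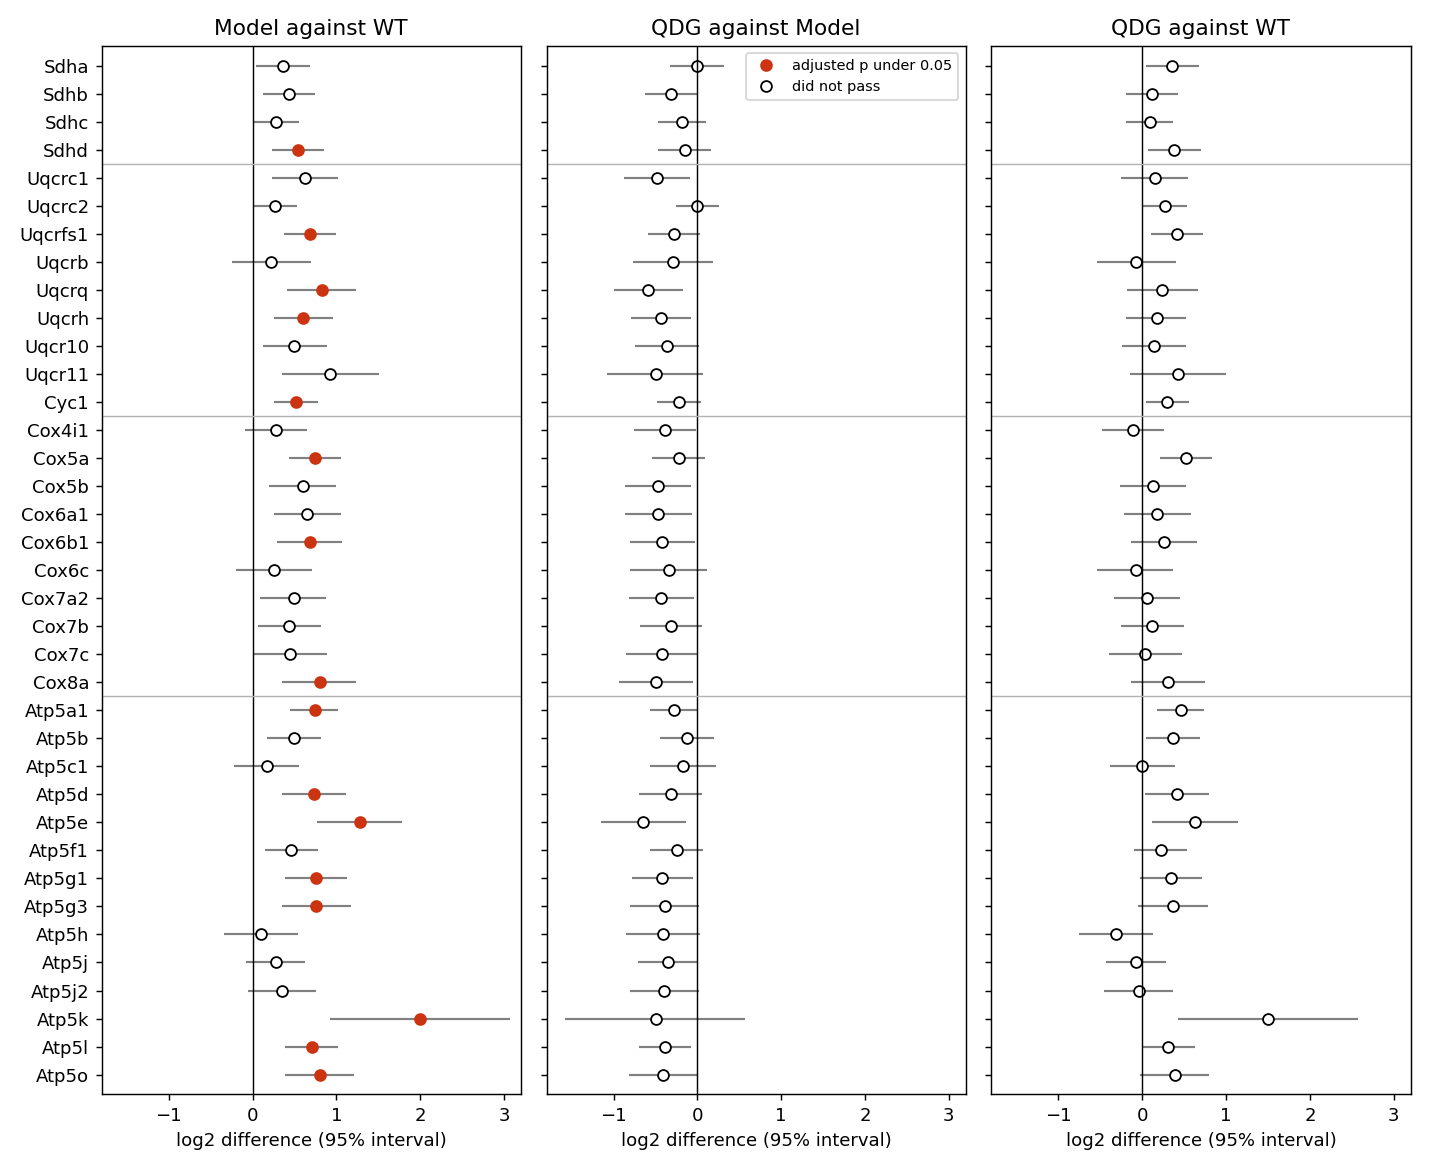
Log2 difference (horizontal axis) with its 95% interval for each of the 37 genes in the 3 comparisons; filled points passed the limma test at an adjusted p under 0.05 and grey lines part the complexes. In Model against WT all points lie above 0 and 16 passed; in QDG against Model 35 of 37 points lie visibly below 0, and 0 passed in either comparison with QDG.

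Summed over each complex, the subunit genes were more abundant in every Model library than in every WT library. The complex II sum was 653 ± 26.9 FPKM (SD, n = 3) for WT, 878 ± 90.8 for Model and 782 ± 67.9 for QDG. For complex III it was 2117 ± 222 FPKM in WT, 3155 ± 379 in Model and 2465 ± 357 with QDG. Complex IV summed to 4263 ± 558 FPKM for WT, 6317 ± 816 for Model and 4681 ± 655 for QDG, and complex V to 2306 ± 184 for WT, 3413 ± 423 for Model and 2758 ± 308 for QDG. The QDG mean lay between the other groups for each complex, nearest to WT for complex IV and nearest to the midpoint for complex II. A few abundant genes carry these sums, in complex IV Cox6a1, Cox8a and Cox4i1.

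**Figure D2:**
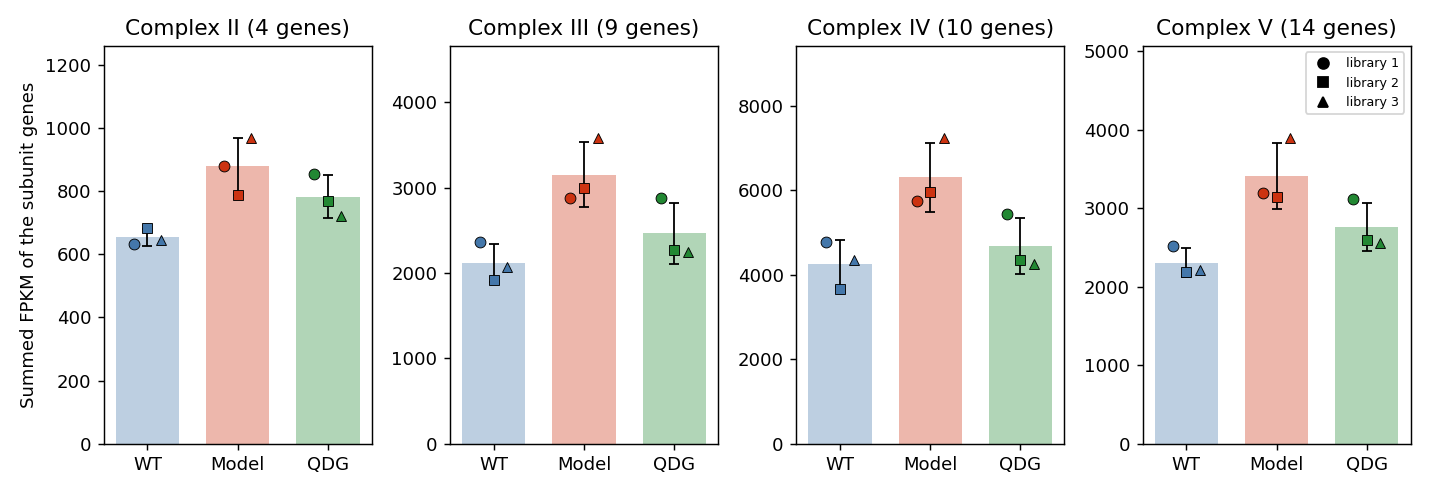
Summed FPKM of the subunit genes of each complex (vertical axis, from 0) by group; bars are means, error bars SD over 3 libraries, and symbols single libraries. Model libraries lie above the WT libraries in each complex, with Model 3 the highest, and QDG 1 lies above the other QDG libraries.

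Within most libraries the 37 genes deviated in the same direction, so that single libraries stand out. After the mean over the 9 libraries was taken from each gene's log2(FPKM + 1), the median of the 37 genes was −0.14, −0.32 and −0.27 in WT 1, WT 2 and WT 3. It was 0.20, 0.21 and 0.50 in Model 1, Model 2 and Model 3, and 0.18, −0.11 and −0.14 in QDG 1, QDG 2 and QDG 3. Over all features the same median lay between −0.03 and 0.03 in every library. Model 3 was above the mean of the 9 libraries for all 37 genes, Model 1 for 36, Model 2 for 35 and QDG 1 for 34, whereas QDG 2 was above it for 8 and QDG 3 for 2. QDG 1 therefore stood with Model 1 and Model 2, and the other QDG libraries stood with WT 1.

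**Figure D3:**
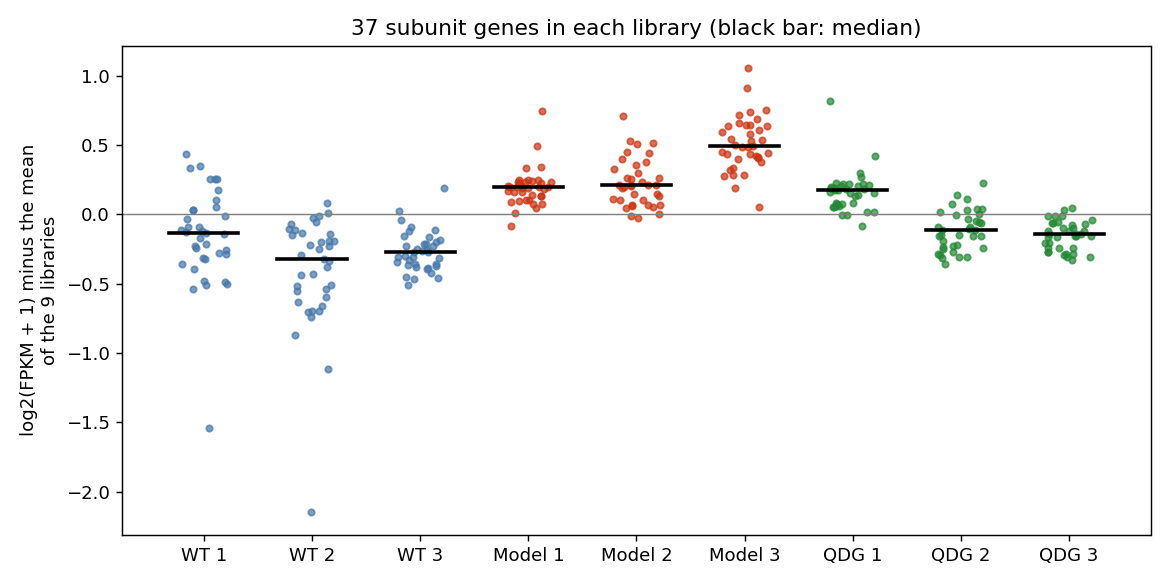
Deviation of each of the 37 genes (points) in each library from that gene's mean over the 9 libraries, on the log2(FPKM + 1) scale; black bars are medians. Medians run from −0.32 in WT 2 to 0.50 in Model 3, and the low points of WT 1 and WT 2 at the bottom are Atp5k.

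Feature length moved with these differences across all genes. Over the features tested, Spearman's rho between length and the deviation of a library ran from −0.48 in Model 3 to 0.37 in WT 2, so shorter features stood higher in Model 3 and lower in WT 2. The 37 genes have recovered lengths of 584 (Uqcr10) to 6443 bases (Atp5l), with a median of 1908, against 3712 over all features. Among the 37, rho between length and the log2 difference of Model and WT was −0.19, against −0.35 over all features tested. For QDG and Model it was 0.42 among the 37 and 0.45 over all features, so shorter genes had the lower differences there. These are descriptions across genes, which share their libraries and are not independent. The median difference was 0.67 for the 8 genes under 1000 bases, 0.57 for the 18 of 1000 to 3000 bases and 0.46 for the 11 longer ones. With the length trend taken out of each library, the median difference of the 37 genes was 0.42 and 11 passed (limma, adjusted p under 0.05), while 3.83% of all features were called higher. The genes that no longer passed were Sdhd, Uqcrh, Cox6b1, Cox8a and Atp5k, and Atp5h then had a difference of −0.08. None of the 8 genes under 1000 bases passed in that fit, against 3 of 8 before. The part of RNA quality or library preparation in this trend was not tested.

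**Figure D4:**
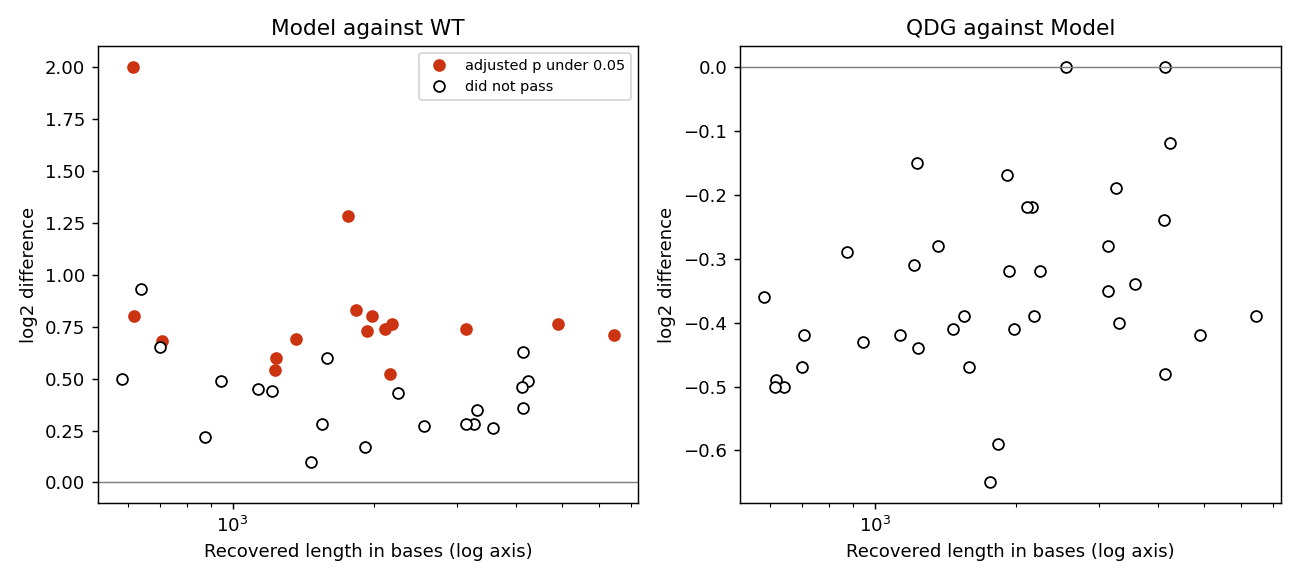
Log2 difference of each of the 37 genes (vertical axis) against its length recovered from the deposited values (horizontal axis, log scale), for Model against WT and QDG against Model; filled points passed the limma test. Called genes occur from 616 bases (Atp5k) to 6443 bases (Atp5l), and differences are somewhat larger for shorter genes.

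Promoter sequence was set beside these values because the subunits are encoded at separate places in the nuclear genome and had higher fitted means in Model in every case. Known regulators of respiratory chain genes include NRF1, GABP (also called NRF2), YY1 and the estrogen-related receptors. Promoters of 300 bases, from 250 before to 50 after the start of a gene, were taken from a RefSeq table of rat build GRCr8, the organism the labels give. Of the 37 genes, 31 were matched to it by current or older symbol and Uqcrb, Uqcr11, Cyc1, Cox6a1, Cox6c and Atp5h were not. Each motif was searched on both strands and apart from the others, so matches to different motifs may overlap. The NRF1 motif (GCGCA, then any base, then GCGC) occurred in 6 of 31 (19.4%), against 4.25% of 33469 promoters. Only protein-coding genes were matched, and among the 21842 promoters of such genes the motif occurred in 5.66%. The GABP motif CCGGAAG occurred in 13 of 31 (41.9%), against 8.75% of all and 10.74% of coding promoters. The YY1 motif AAGATGGCG occurred in 3 of 31 (9.7%), against 1.73% of all and 2.07% of coding promoters. The estrogen-related receptor motif TCAAGGTCA occurred in 2 of 31 (6.5%), against 0.43% and 0.37%.

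The NRF1 motif was in 3 of 15 matched genes that were called in Model against WT and in 3 of 16 that were not. The GABP motif was in 7 of 15 and 6 of 16, the YY1 motif in 0 and 3, and the estrogen-related receptor motif in 2 (Sdhd and Atp5g3) and 0. A match is a run of letters and does not show that a factor binds there. The 100 bases before the start are shown for 7 genes with an NRF1 or GABP match there whose window lies outside the annotated gene. The bases run in the direction of transcription, with matches in capitals. Not every chromosome was used for this display, so other genes may fit the same rule. Sdhd, Uqcrh, Cox8a and Atp5o were called in Model against WT, and Sdha, Uqcrc1 and Uqcrc2 were not. For Atp5k, the gene with the largest difference, whose window overlaps the annotated gene, a stretch of 30 bases around its NRF1 match is shown.
Sdhd (chr8:59850642-59850741, minus strand): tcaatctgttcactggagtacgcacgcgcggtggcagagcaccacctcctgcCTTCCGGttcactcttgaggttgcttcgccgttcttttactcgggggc
Uqcrh (chr5:134790883-134790982, minus strand): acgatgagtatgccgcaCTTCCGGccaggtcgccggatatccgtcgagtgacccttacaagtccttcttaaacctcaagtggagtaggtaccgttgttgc
Cox8a (chr1:213833624-213833723, minus strand): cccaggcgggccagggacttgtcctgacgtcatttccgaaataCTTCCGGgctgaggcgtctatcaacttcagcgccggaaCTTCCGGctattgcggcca
Atp5o (chr11:44657484-44657583, minus strand): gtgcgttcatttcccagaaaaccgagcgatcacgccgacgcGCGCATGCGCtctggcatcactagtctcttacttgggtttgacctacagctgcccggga
Sdha (chr1:30764453-30764552, plus strand): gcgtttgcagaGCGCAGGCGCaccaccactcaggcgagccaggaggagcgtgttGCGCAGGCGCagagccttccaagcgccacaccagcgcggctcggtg
Uqcrc1 (chr8:118468123-118468222, plus strand): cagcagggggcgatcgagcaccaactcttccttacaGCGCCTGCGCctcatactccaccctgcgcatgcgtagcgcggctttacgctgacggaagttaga
Uqcrc2 (chr1:184599140-184599239, plus strand): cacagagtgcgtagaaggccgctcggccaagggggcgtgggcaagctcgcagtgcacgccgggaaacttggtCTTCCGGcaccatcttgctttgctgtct
Atp5k (chr14:1464774-1464803, plus strand): ttgcgctacgGCGCATGCGCtttcctggct
Atp5o and Atp5k, which differed by 0.80 and 2.0 on the log2 scale, carry the same NRF1 letters in capitals, and the table lists them under the rat symbols Atp5po and Atp5me. Sdha, at 0.36, carries the NRF1 motif at 2 places in the 100 bases shown and at 3 in its whole promoter window. Cox8a, at 0.80, and Uqcrc2, at 0.27, both carry GABP matches, so genes with the same motif had larger and smaller differences.

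QDG was compared with Model to ask which genes respond to the granule in the hypertensive kidney. The fitted means of the subunit genes were mostly lower in QDG, with a median log2 difference of −0.39, against −0.02 over all features tested, and 36 of 37 fitted differences lay below 0, while 46.5% of all features lay above it. Under quantile normalization the median was −0.19, against 0.01 over all features, and 31 lay below 0. Without that change the median over features at 100 FPKM or more was −0.21. It was −0.22 for features under 1000 bases, −0.13 for those of 1000 to 3000 bases and 0.04 for those over 3000 bases. No gene passed: 0 of 37 were called by limma (adjusted p under 0.05), and the share called among all 12187 features tested was 0%. At an unadjusted p under 0.05 there were 13 of 37 genes, against 13.9% of all features, and limma's voom on recovered reads also called 0. All 3 QDG values lay below all 3 Model values for 18 of 37 genes, against 16.3% of all features. This comparison shares the Model libraries with the one above, so their differences are not independent of each other.

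The lowest p belonged to Uqcrq, whose QDG values of 224, 167 and 162 FPKM lay below its Model values of 249.2, 261 and 318. Its log2 difference was −0.59 (SE 0.19; 95% interval −1.0 to −0.17; limma adjusted p = 0.297). Atp5e had the largest difference, −0.65 (SE 0.23; limma adjusted p = 0.311), and its groups did not overlap either. At the other end, Uqcrc2 and Sdha had almost the same means in both groups. Uqcrc2 stood at 153 ± 9.10 FPKM (SD, n = 3) in QDG and 153 ± 6.92 in Model, a log2 difference of 0.00 with a 95% interval of −0.26 to 0.26. Sdha stood at 208 ± 17.3 FPKM in QDG and 209 ± 18.1 in Model, with an interval of −0.33 to 0.32 for the difference. The 95% intervals had a median half-width of 0.39, as large as the median difference itself.

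By complex, the median difference between QDG and Model was −0.17 in complex II, −0.36 in complex III, −0.42 in complex IV and −0.39 in complex V. Complex IV had the most genes at an unadjusted p under 0.05, 6 of 10 (Cox4i1, Cox5b, Cox6a1, Cox6b1, Cox7a2 and Cox8a), and complex II had 1 of 4 (Sdhb). Differences between complexes were not tested. The 16 genes called in Model against WT had a median of −0.40 here and the other 21 a median of −0.35. Library by library, QDG 3 was below the lowest Model value for 36 of 37 genes and QDG 2 for 34, but QDG 1 for 18. How many of all features lay so in single libraries was not counted. These counts are therefore not set apart from library-wide shifts. Without Model 3 the median was −0.26 and 1 gene (2.7%) had an unadjusted p under 0.05, against 8.20% of all features in that fit. Without QDG 3 there was 1 such gene, against 6.58% of all features, and without QDG 2 there were 3 (8.11%), against 6.94%. Without QDG 1 there were 20 (54.1%), against 13.1%. The share of the 37 genes was thus below or near that of all features when Model 3, QDG 2 or QDG 3 was left out. With the length trend removed the median was −0.25 and 6 genes (16.2%) had such a p, against 11.1% of all features, and under quantile normalization 4 genes (10.8%) did, against 11.8%.

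QDG against WT asks what still differs from the normal kidney under treatment. The median log2 difference was 0.24, against 0.00 over all features tested. It was 0.14 when WT 2 was left out and 0.15, with 26 of 37 genes above 0, when QDG 1 was. With all libraries the difference was above 0 for 31 of 37 genes (and for 49.9% of all features) and below 0 for Uqcrb, Cox4i1, Cox6c, Atp5h, Atp5j and Atp5j2. None of the 37 passed (0 called, while 301 of 12187 features, 2.47%, were called by limma), and 12 genes had an unadjusted p under 0.05, against 21.3% of all features. Without QDG 1 there were 3 such genes (8.11%), against 14.5% of all features in that fit. Without QDG 2 there were 5 (13.5%), against 14.4%, and without WT 2 there were 7 (18.9%), against 21.6%, so that the share of the 37 genes was below that of all features in these 3 fits. All 3 QDG values lay above the WT values for 12 of 37 genes, against 15.2% of all features, and below them for 0.

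Cox5a came nearest to the threshold. Its QDG values of 97.8, 81.0 and 82.7 FPKM lay above its WT values of 61.4, 53.4 and 67.0, a log2 difference of 0.52 (SE 0.14; limma adjusted p = 0.0757, and 0.044 with the length trend removed). Atp5a1 followed, at 18.8, 19.4 and 17.8 FPKM in QDG and 12.3, 14.4 and 13.3 in WT, a difference of 0.46 (SE 0.13; limma adjusted p = 0.0823). Both are genes that were called in Model against WT. For Cox5a only QDG 1 reached the Model values, and for Atp5a1 QDG 3 stayed below them. Atp5k had the largest difference, 1.5 (SE 0.48; limma adjusted p = 0.119), with the WT values spread as described. Atp5h lay lowest, at −0.31 (SE 0.20; limma adjusted p = 0.395), and its QDG values overlapped those of WT. The comparison shares the WT libraries with the first and the QDG libraries with the second.

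QDG libraries differed in where they stood between the other groups. QDG 1 was above the highest WT value for 30 of 37 genes and within the Model range for 17. QDG 2 was above the highest WT value for 17 genes and QDG 3 for 12, and they were within the WT range for 17 and 24. The shares of all features placed so in single libraries were not counted, so these counts may hold library-wide shifts. The genes whose QDG values stayed above WT in all 3 libraries were Sdha, Sdhd, Uqcrc2, Uqcrfs1, Cyc1, Cox5a, Atp5a1, Atp5b, Atp5d, Atp5e, Atp5g1 and Atp5l. Among these 12 are the electron-carrying Uqcrfs1 and Cyc1 of complex III and the alpha, beta, delta and epsilon subunits of the ATP synthase head and rotor, and only Cox5a comes from complex IV.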

How the data were processed

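Kidney RNA of 3 groups of 3 libraries was measured by sequencing. The authors deposited 1 value per feature and library with no unit named, taken here as FPKM, reads scaled by the authors to feature length and library total. Per feature and library, the values moved in steps of whole reads (17862 of 17862 features, 100%, within 0.0001 read or a relative 2e-08) over whole base lengths. Recovered reads in features came to 26.8 M to 29.4 M a library, above the implied total in 4 libraries. No source used here names an aligner, a counter, a build or an annotation. The submitters' processing notes name limma.

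The 12187 features averaging 1 FPKM or more were fitted in 1 limma model (version 3.58.1, R 4.3.3) with an intensity trend on log2(FPKM + 1), over all 9 libraries. The two-sided p was adjusted (Benjamini-Hochberg) over all features tested, within each of 3 comparisons. Fold values are ratios of group means of FPKM. Scripts were tested on simulated data. Alternatives changed the pseudocount, filter, scaling, samples, replicate block, length trend (loess, span 0.5) or test (limma's voom on recovered reads), or left out a library. Genes were given library by library if they were among the 12 called genes with the smallest p in Model against WT, the most or least abundant of a complex, the smallest p in each direction of a comparison, or in complex II. The members, lists and tests were chosen with earlier results of these data known.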

Additional observations from a re-analysis of the deposited data

How the results depend on the processing

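In Model against WT, the median log2 difference of the 37 genes lay between 0.31 and 0.64 over 22 alternatives, 3 of which, each with 2 changes, were added after seeing the data. It moved beyond the spread between libraries under quantile normalization (0.31) and with the length trend and Model 3 both removed (0.35). The call count of 16 was less steady, and the share of all features called higher (6.01% in the main fit, in brackets below) also moved. The count was 9 with no filter (2.96%), 7 under quantile normalization (3.54%) and 3 with the FPKM sums scaled to one total (1.28%). It was 1 with only the 2 groups compared (0.837%) and 10 with the replicate block (3.48%). Leaving out 1 library gave 0 to 16 calls. The count was 6 when WT 1 was left out (2.66%), 2 for WT 2 (1.49%) and 7 for Model 1 (1.92%). It was 0 for Model 3 (1.18%), 5 for QDG 2 (2.58%) and 7 for QDG 3 (3.52%). With Model 3 left out there were 0 calls with the length trend removed (0.845%) and 2 with voom on median-ratio sizes (1.32%). No call changed direction. Fitted differences of 3 genes turned below 0 under quantile normalization, so that 34 stayed above. In QDG against Model, 0 genes were called throughout, and the median was −0.19 under quantile normalization and −0.16 with the length trend and Model 3 removed. Leaving out 1 library gave medians of −0.26 to −0.47. In QDG against WT, leaving out 1 library gave 0 to 1 calls, the 1 without WT 3 (6.36% of all features were called). The count was 2 under quantile normalization (4.23%), 1 with only the 2 groups compared (3.99%) and 1 (Cox5a) with the length trend removed (3.99%). With the length trend and WT 3 removed it was 4, against 10.8% of all features. These were Cox5a, Atp5e and Atp5k higher, and Atp5h lower at −0.52 (limma adjusted p = 0.0398). It was 1 with the length trend and Model 3 removed (3.88%), and 1 with voom without Model 3 (4.22%). The cause of these shifts was not tested.

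No pairing of libraries by replicate number showed in the values, which cannot exclude one with 3 libraries a group. Same-numbered libraries of different groups correlated at −0.33 to 0.14 in their deviations from group means, 1 of 9 pairs was over 0.1, and 1 of 9 libraries correlated best with its own number. With the replicate block, calls over all features went from 963 to 533 in Model against WT and from 301 to 154 in QDG against WT. All but Uqcrc1 had at least 454 reads in every library. What part depth or the number of libraries has in the number of calls was not tested.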
